A study of Mus musculus with 18 samples.

Results

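The ATP-gated and acid-sensing channels are the 2 families of ion channels through which a sensory neuron detects ATP spilled from damaged cells and the acid of inflamed or ischaemic tissue. They were taken by gene symbol as P2rx2, P2rx3, P2rx4, P2rx5, P2rx6 and P2rx7, which encode P2X subunits, and Asic1, Asic2 and Asic3, which encode acid-sensing subunits. These are 9 of the 22021 genes listed, and all 9 were among the 14214 genes with enough reads to be tested. As background, P2X channels are trimers that open a cation pore when ATP binds between their subunits. ASIC channels are trimers of the degenerin and epithelial sodium channel family that open when protons bind. Channels built from P2X3 alone or from P2X2 and P2X3 together are the best known ATP receptors of nociceptors, the neurons that detect harmful stimuli, whereas P2X7 and P2X4 are best known from macrophages and glia.

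The study measured mRNA in dorsal root ganglia (DRG) of Nav1.8-trap mice, a cross of Rosa26fsTRAP with Nav1.8cre mice on a C57BL/6J background, of both sexes and at an age of 8 to 12 weeks. All groups carry both alleles: Cre driven from Scn10a, which encodes the sodium channel Nav1.8, switches on an EGFP-L10a ribosomal protein, so that anti-GFP beads pull down ribosomes and their mRNA from Nav1.8 neurons only as far as the Scn10a promoter marks them (translating ribosome affinity purification, TRAP). Each biosample gave an input library, made from the extract before pulldown, and a TRAP library, in normal mice (biosamples 1 to 4) and in paclitaxel-treated mice (biosamples 5 to 8). Paclitaxel, a cancer drug that can leave a painful neuropathy, was injected intraperitoneally at 4 mg/kg in 4 injections over 8 days, 16 mg/kg in all. The labels describe animals given vehicle, but do not state whether the normal mice were these, nor how many mice went into a biosample. Biosample 7 consisted of 2 subsamples, which were averaged, so that 18 libraries made 16 pooled ones in 4 groups of 4. P-values for TRAP against input measure the spread of the TRAP-input difference from biosample to biosample, shared over both treatments. Those for paclitaxel against normal measure the spread between the biosamples of a fraction.

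The libraries were sequenced from the 3′ ends of transcripts and held 4266012 to 14478019 reads in input and 5972330 to 32713520 in TRAP. Values are reads scaled to the same total per library (CPM), and 3 reads, used as a floor, correspond to 0.0917 to 0.703 CPM. Between 13152 and 14043 genes reached 1 CPM in an input library and between 8081 and 13228 in a pulldown. The pulldown of subsample 1 of biosample 7 stood apart with 8081, against 11945 in subsample 2, and several results that rest on it are given with and without it. Scn10a, which drives the tag, had a mean of 666.1 ± 247.9 CPM in normal input and 1002 ± 338.2 in normal TRAP, and 562.3 ± 76.37 and 1405 ± 296.5 after paclitaxel (SD, n = 4). It was higher in the pulldown in 8 of 8 biosamples (log2 changes 0.59 and 1.3, limma adjusted p = 0.0267 and 6.81e-05). Of all genes, 8.41% were higher in 4 of 4 normal biosamples and 11.5% in 4 of 4 paclitaxel biosamples. In normal biosamples 2 and 4 the Scn10a difference was only 0.087 and 0.05, against 1.14 and 1.07 in biosamples 1 and 3. The Scn10a call in normal mice did not hold under 6 of 20 alternative settings. Of 14 pan-neuronal markers none was at 0 throughout a group, and their summed level was 13340 to 21330 CPM in input.

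The genes lie on 5 chromosomes of the GRCm38 build. P2rx7 (chromosome 5, 122643911 to 122691432, plus strand) and P2rx4 (chromosome 5, 122707544 to 122729738, plus strand) are neighbours, 16111 bases apart in the same orientation. P2rx2 (110339812 to 110343212, minus strand) and Asic3 (24413392 to 24417835, plus strand) lie elsewhere on chromosome 5. P2rx3 is on chromosome 2 (84998583 to 85037462, minus strand), P2rx5 on chromosome 11 (73160421 to 73172685, plus strand), P2rx6 on chromosome 16 (17561885 to 17577800, plus strand), Asic1 on chromosome 15 (99670368 to 99701130, plus strand) and Asic2 on chromosome 11 (80880169 to 81968457, minus strand). The 3′ end of P2rx6 is overlapped by Slc7a4 on the opposite strand, over 355 bases of its last exons. The strand setting of the counting is not given in the sources used here, so reads of P2rx6 and Slc7a4 cannot be told apart there. The nearest gene to Asic3 is Cdk5 on the opposite strand, 405 bases from its 3′ end.

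The 2 members that passed a test below were P2rx7 and Asic3, so the regions around their transcription starts are shown. RefSeq (GRCm38.p6) had windows from 250 bases before to 50 bases after a transcription start for 6 of the 9 members. P2rx7 has 2 annotated starts (chr5:122643677-122643976 and chr5:122650133-122650432, plus strand), and Asic3 has 1 (chr5:24413201-24413500, plus strand). Capitals mark GC boxes, GGGCGG read on either strand, a motif bound by SP family factors.
P2rx7 first start: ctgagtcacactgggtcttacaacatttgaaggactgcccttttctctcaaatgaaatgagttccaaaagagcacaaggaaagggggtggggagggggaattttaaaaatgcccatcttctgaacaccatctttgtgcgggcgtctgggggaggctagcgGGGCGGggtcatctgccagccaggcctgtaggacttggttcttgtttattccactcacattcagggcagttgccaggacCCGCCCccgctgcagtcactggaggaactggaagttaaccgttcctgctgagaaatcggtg
P2rx7 second start: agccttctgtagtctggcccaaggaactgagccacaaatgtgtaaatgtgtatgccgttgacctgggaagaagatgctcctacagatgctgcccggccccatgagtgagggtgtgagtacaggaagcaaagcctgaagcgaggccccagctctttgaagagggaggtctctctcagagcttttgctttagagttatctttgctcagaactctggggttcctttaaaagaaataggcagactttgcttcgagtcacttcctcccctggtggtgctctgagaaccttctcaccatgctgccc
Asic3 start: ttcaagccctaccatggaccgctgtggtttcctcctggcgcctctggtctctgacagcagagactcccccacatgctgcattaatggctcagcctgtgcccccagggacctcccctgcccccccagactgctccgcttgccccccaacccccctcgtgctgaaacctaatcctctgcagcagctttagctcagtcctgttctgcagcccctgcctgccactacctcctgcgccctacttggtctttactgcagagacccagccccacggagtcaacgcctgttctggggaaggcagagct
The first P2rx7 window held a GC box at position 161 and, on the opposite strand, at position 240, counted from 1 at the window's 5′ end. The second P2rx7 window and the Asic3 window held none, and no window shown held any of the other 4 motifs searched on both strands. These were the TATA box as TATAAA, the CCAAT box as CCAAT, an E-box as CACGTG and the full cAMP response element as TGACGTCA, and no motif contains another. Of all 32851 windows of this length, 35.7% held a GC box, 13.6% the TATA box, 37.4% the CCAAT box, 7.15% the E-box and 1.79% the cAMP response element. GC content was 53.3% and 51.7% in the P2rx7 windows and 62% in that of Asic3, against a median of 52.7% over all windows. Reads from 3′ ends do not tell which start an mRNA came from, so the values below are the sum over both P2rx7 starts.

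Among the 9 channel genes Asic2 had the highest level in all 4 groups. A 3′ library gives about 1 read position per mRNA, so CPM levels can be set side by side between genes without division by length, as far as the annotation covers each 3′ end. Asic2, a subunit of proton-gated channels that has also been studied in mechanosensory neurons, ranged from 268.34 to 366.85 CPM in normal input and made up 62.3% of the summed level of the 9 genes there (53.8% to 66.5% over biosamples). P2rx4 had rank 2 in all 4 groups, with means of 84.17 ± 18, 103.6 ± 45, 104.6 ± 7.255 and 69.5 ± 16.36 CPM in normal input, normal TRAP, paclitaxel input and paclitaxel TRAP (SD, n = 4). The ranges of Asic2 and P2rx4 did not overlap in any group. P2rx2 was the lowest in all 4, with group means between 0.0425 and 1.964 CPM. The remaining 6 genes lay between them, and most neighbours in that order had overlapping ranges. In normal input the order was P2rx3 (33.25 ± 7.944 CPM), P2rx5, Asic3, Asic1, P2rx6 and P2rx7 (6.712 ± 3.546 CPM), in which each gene overlapped the next. P2rx4 lay above P2rx3, and P2rx7 above P2rx2, without overlap. In normal TRAP P2rx3 again followed P2rx4, at 51.5 ± 19.36 CPM, while P2rx7, at 0.605 ± 0.8077 CPM, was separated from P2rx6 above it. After paclitaxel Asic3 followed P2rx4, with 22.12 ± 10.4 CPM in input and 59.33 ± 25.58 in TRAP, and P2rx3 stood at rank 6 in input (15.47 ± 7.219 CPM) and rank 5 in TRAP (24.43 ± 8.825 CPM). In paclitaxel TRAP every neighbouring pair below Asic2 overlapped.

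**Figure D1:**
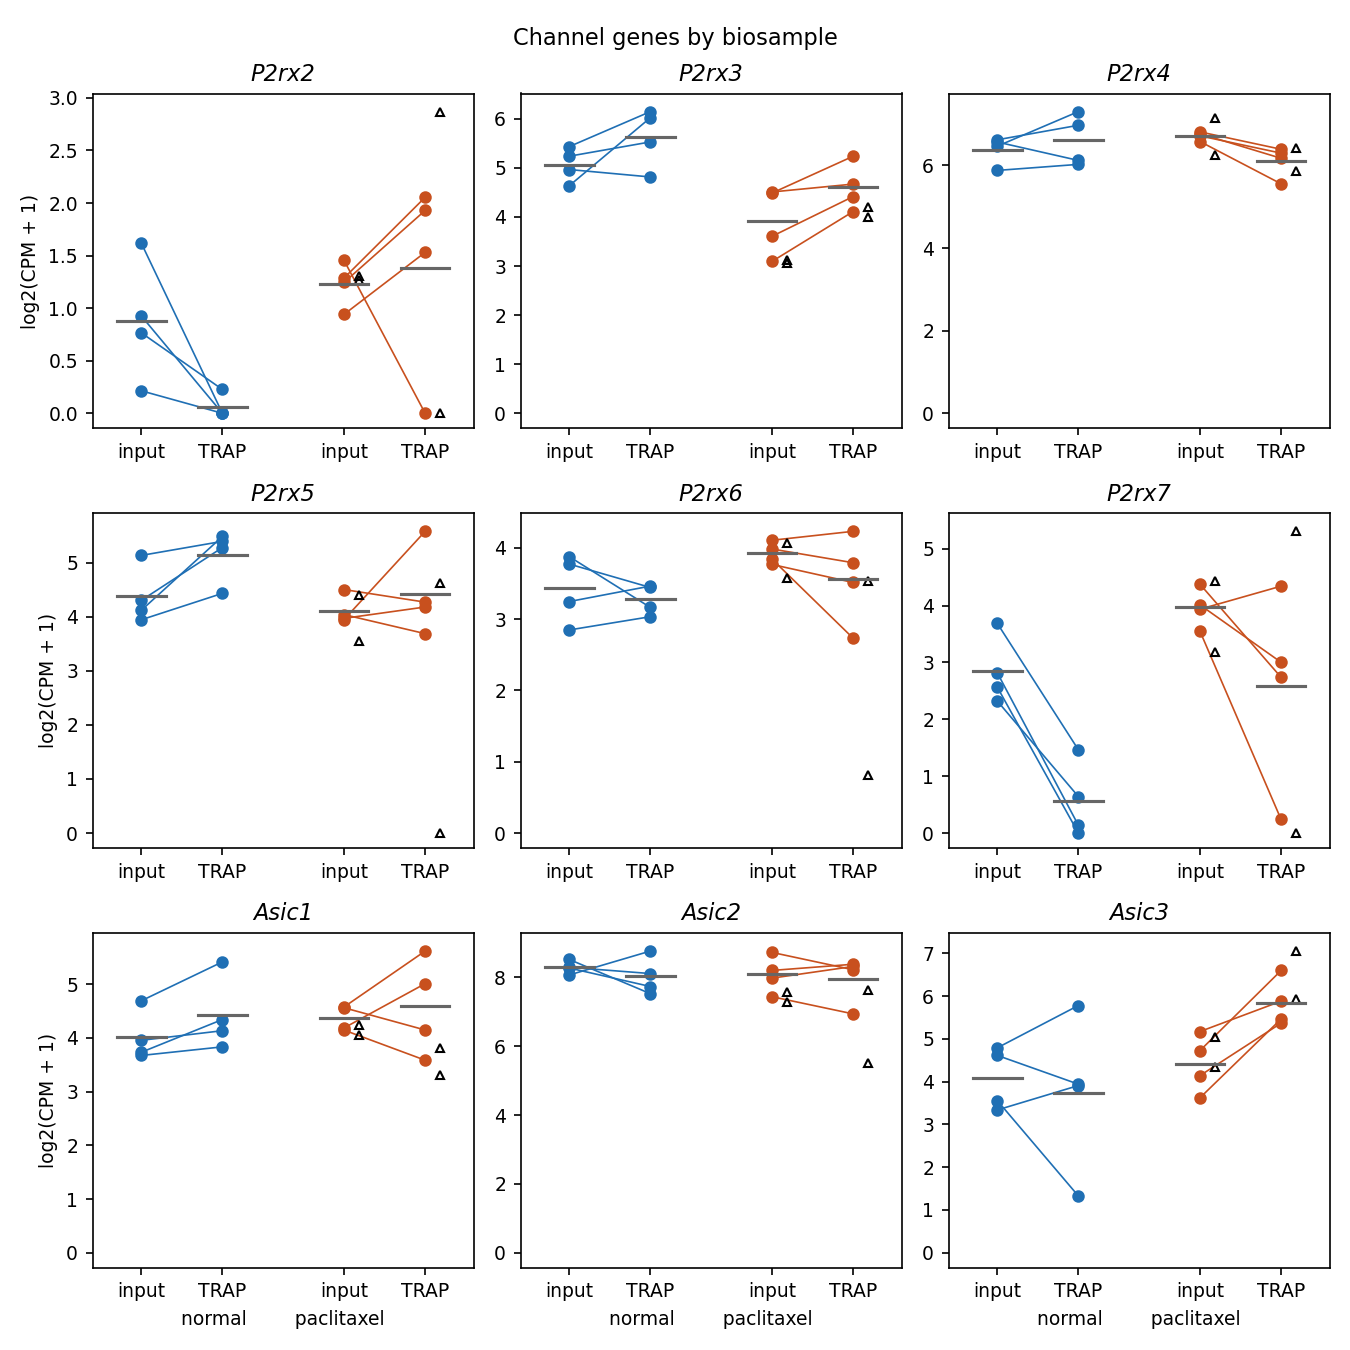
Level of each channel gene as log2(CPM + 1) in the input and TRAP library of each biosample, normal in blue and paclitaxel in orange, with a line joining the libraries of 1 biosample, a grey bar for the group mean and open triangles for the subsamples of biosample 7. P2rx7 lies lower in TRAP in all 4 normal biosamples, and Asic3 lies higher in TRAP in all 4 paclitaxel biosamples.

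Each pulldown was first compared with the input of the same biosample. Each library is scaled to its own total, so a gene's share of the pulldown reads is set against its share of the input reads. The amount of a channel's mRNA on tagged ribosomes was not measured. In normal mice 1 of the 9 genes passed, P2rx7, which was lower in TRAP. That is read against the background: 29.8% of all tested genes passed in either direction, 24.7% lower and 5.09% higher. The median change of the 9 was -0.16 on the log2 scale, and that of all tested genes -0.66. After paclitaxel 1 of 9 passed as well, Asic3, which was higher in TRAP, while 27.9% of all tested genes passed, 23% lower and 4.92% higher. The medians were 0.15 for the 9 and -0.56 for all genes. By edgeR on the recovered reads 0 of 9 passed in normal mice (5 had an unadjusted p under 0.05) and 1 of 9 after paclitaxel (2 unadjusted). Of all 14214 genes 1864 and 1915 passed by edgeR. The edgeR share of all genes with an unadjusted p under 0.05 was not computed for any comparison, so the unadjusted edgeR counts have no background. By limma 1 and 3 of the 9 had an unadjusted p under 0.05, against 42.7% and 40.4% of all genes. Median-ratio scaling and quantile normalization raised the median of all genes by 0.34 and 0.66 in normal mice and by 0.28 and 0.6 after paclitaxel. With them the higher share of all called genes went from 17.1% to 45.2% and 48.5% in normal mice, and from 17.6% to 39.4% and 47.6% after paclitaxel.

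P2rx7 encodes the subunit of a channel that needs high ATP concentrations to open and is best known from immune cells and glia. In the normal inputs it was at 6.05, 4.00, 11.88 and 4.92 CPM in biosamples 1 to 4, and in the pulldowns of the same biosamples at 0.10, 0.56, 1.76 and 0 CPM, that is 2, 15, 34 and 0 reads. All 4 pulldowns lay below all 4 inputs, a pattern whose share over all genes was not computed. The change was -2.29 on the log2(CPM + 1) scale (SE 0.666, limma adjusted p = 0.0134, lower in 4 of 4 biosamples), and 36.4% of all tested genes were lower in 4 of 4. The call was lost with quantile normalization (-0.979, adjusted p = 0.231), with edgeR (-3.69, 0.0785), with subsample 1 alone for biosample 7 (0.0508) and without biosample 1 (-2.16, 0.0568), and the direction held under all 20 alternatives. Its smallest and largest changes among them were -0.979 and -3.98. Biosample 7 is a paclitaxel biosample, so with its subsample 1 alone the normal change stayed at -2.29. Only the spread, which the fit shares between the treatments, and the adjustment over all genes changed.

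After paclitaxel the P2rx7 pulldowns were scattered. The inputs were at 15.12, 10.69, 14.3 and 19.74 CPM in biosamples 5 to 8, and the pulldowns at 7.01, 0.18, 19.26 and 5.67 CPM. The value of biosample 7 was the mean of 38.53 CPM (411 reads) in subsample 1 and 0 CPM (0 reads) in subsample 2, 2 pulldowns that carry the same label. P2rx7 was lower in TRAP in 3 of 4 biosamples, and the change of -1.39 did not pass (SE 0.666, limma adjusted p = 0.121). With subsample 2 alone it was -2.59 and passed (adjusted p = 0.00693). The plot of reads per library shows how few libraries carry the counts of this gene and of P2rx2 in the pulldowns.

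Macrophage markers, chosen because P2X7 is known from these cells, had a summed level of 113.8 to 253.9 CPM in normal input and 56.96 to 96.6 in normal TRAP, and 226.4 to 286 and 66.18 to 100.2 CPM after paclitaxel. Of the 14 macrophage markers, 5 were lower in TRAP in normal mice and 9 after paclitaxel, with none higher and none at 0 in every library of a group. Lower levels in TRAP were not particular to them: 9 and 10 of 12 satellite glia markers, 11 and 11 of 12 Schwann cell markers, 7 and 7 of 8 fibroblast markers, 5 and 6 of 8 endothelial markers and 11 and 12 of 14 large-fibre markers were lower, against 24.7% and 23% of all genes. Nociceptor markers went both ways: of 21 tested, 4 were higher and 3 lower in normal TRAP, and 10 higher and 1 lower after paclitaxel. Of 14 pan-neuronal markers 5 were higher and 3 lower in normal TRAP, and 4 and 3 after paclitaxel. Among the endothelial markers 1 was higher in normal TRAP. Of all genes, 5.09% and 4.92% were higher. The part of any of these cell types in the P2rx7 values was not tested. In bulk extracts, fewer cells of a type and less mRNA per cell cannot be told apart.

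**Figure D2:**
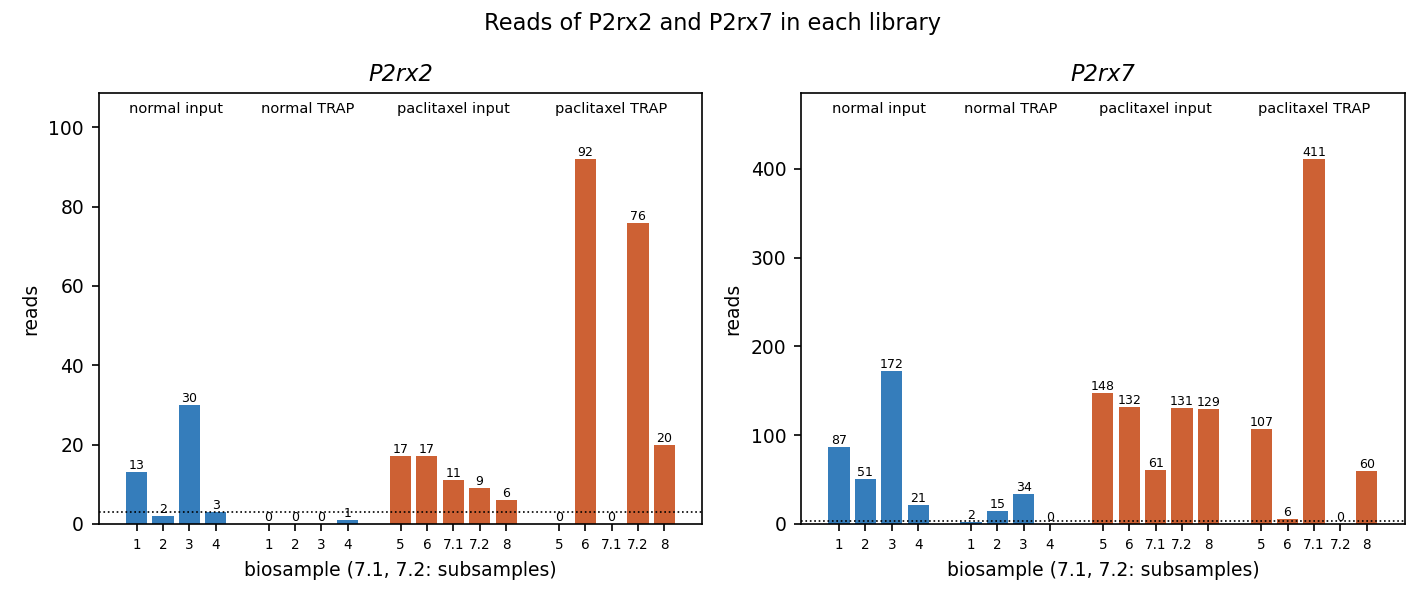
Reads of P2rx2 and P2rx7 in each of the 18 libraries, normal in blue and paclitaxel in orange, with the number of reads above each bar and a dotted line at 3 reads. P2rx2 had 1 read in the 4 normal pulldowns together, and P2rx7 had 411 and 0 reads in the subsamples of the biosample 7 pulldown.

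P2rx2, whose subunit joins P2X3 in slowly desensitising channels, was near the floor. It reached 1 CPM in 7 of the 16 pooled libraries and was at 0 in 5 of the 18. The normal inputs were at 0.90, 0.16, 2.07 and 0.70 CPM and the pulldowns at 0, 0, 0 and 0.17 CPM. Pooled over the 4 biosamples there was 1 read of 72201091 in TRAP and 48 of 45864973 in input, a ratio of 0.0132 (exact 95% interval 0.000328 to 0.0773, which covers counting error only). The fitted change of -0.82 did not pass (SE 0.448, limma adjusted p = 0.16), although the pulldown was lower in 4 of 4 biosamples. After paclitaxel the inputs were at 1.74, 1.37, 1.44 and 0.92 CPM and the pulldowns at 0, 2.81, 3.15 and 1.89 CPM. The pulldown of biosample 5 and subsample 1 of biosample 7 had no read, whereas biosample 6 had 92 reads, subsample 2 of biosample 7 had 76 and biosample 8 had 20. Pooled, these were 188 reads of 81268320, against 60 of 42595300 in input, a ratio of 1.64 (1.22 to 2.23, counting error only). The pulldown was higher in 3 of 4 biosamples, and the change of 0.15 was smaller than its SE of 0.448.

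P2rx3, whose subunit forms the fast ATP-gated channels of non-peptidergic nociceptors, was at 23.86, 36.71, 42.20 and 30.24 CPM in the normal inputs and at 63.95, 45.14, 69.79 and 27.13 CPM in the pulldowns. It was higher in TRAP in 3 of 4 normal biosamples, by 0.56 (SE 0.388, limma adjusted p = 0.271). After paclitaxel the inputs were at 21.76, 21.42, 7.54 and 11.17 CPM and the pulldowns at 24.44, 36.68, 16.26 and 20.33 CPM, higher in 4 of 4 biosamples by 0.68 (SE 0.388, adjusted p = 0.188). Both changes lay above the median of all genes and did not pass the test. The share of genes higher in 4 of 4 biosamples was 8.41% in normal mice and 11.5% after paclitaxel.

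P2rx4 encodes the subunit of a calcium-permeable P2X channel found in neurons, macrophages and microglia. Its normal inputs were at 97.47, 57.90, 93.87 and 87.44 CPM and its pulldowns at 124.66, 64.19, 68.66 and 157.06 CPM, which overlap (log2 change 0.22, SE 0.249, limma adjusted p = 0.507). After paclitaxel the inputs were at 111.46, 94.66, 108.04 and 104.19 CPM and the pulldowns at 83.01, 46.04, 71.22 and 77.72 CPM. With the subsamples of biosample 7 averaged, all 4 paclitaxel pulldowns lay below all 4 inputs, a pattern whose share over all genes was not computed. P2rx4 was lower in its own pulldown in 4 of 4 biosamples, as were 36.6% of all genes. Subsample 1 of biosample 7 went the other way, with 75.59 CPM in input and 85.50 in TRAP. Subsample 2 had 140.50 and 56.93 CPM. The change of -0.61 was close to the median of all genes and did not pass (SE 0.249, adjusted p = 0.0677). It passed with subsample 2 alone for biosample 7 (-0.788, adjusted p = 0.0265) and with the authors' weights for the subsamples (-0.678, 0.0437).

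P2rx5 and P2rx6 encode subunits known mainly from mixed P2X channels, and neither passed in either treatment. P2rx5 had 14.43 to 34.22 CPM in normal input and 20.65 to 43.90 in normal TRAP, higher in 4 of 4 biosamples by 0.77 (SE 0.444, limma adjusted p = 0.183). After paclitaxel it was higher in 2 of 4, and the biosample 7 pulldown held 0 and 23.82 CPM in its subsamples. P2rx6 was at 6.20 to 13.68 CPM in normal input and 7.19 to 10.03 in normal TRAP, and at 12.61 to 16.22 and 5.64 to 17.78 CPM after paclitaxel. The 5.64 CPM was the mean of 0.75 and 10.54 CPM in subsamples 1 and 2 of the biosample 7 pulldown. The P2rx6 changes of -0.16 and -0.36 were smaller than their SE of 0.562.

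Asic3 encodes the subunit of acid-sensing channels that answer small drops in pH, studied in afferents of muscle, heart and skin. The paclitaxel inputs were at 16.65, 11.32, 25.46 and 35.04 CPM and the pulldowns at 40.29, 43.16, 95.9 and 57.96 CPM in biosamples 5 to 8. All 4 pulldowns lay above all 4 inputs, a pattern whose share over all genes was not computed. The pulldown of biosample 7 was the mean of 131.81 and 60.00 CPM in its subsamples, the inputs of which were at 19.20 and 31.73 CPM. The change was 1.41 (SE 0.489, limma adjusted p = 0.0343), higher in 4 of 4 biosamples, as were 11.5% of all tested genes. By edgeR it was 1.85 (adjusted p = 0.0359). The call was lost under 8 of 20 alternatives, with changes of 1.26 to 1.47 and adjusted p of 0.0835, 0.125 and 0.142 without biosamples 5, 6 and 7. With subsample 2 alone for biosample 7 it was 1.17 (0.0785). The other 4 were a pseudocount of 0.1 (0.0584), no filter on low values (0.073), no replicate block (0.118) and leaving out the 2 biosamples per treatment whose pulldowns had the fewest genes (0.0902). These were biosamples 1, 2, 5 and 6 with genes counted after averaging the subsamples of biosample 7, whereas averaging the subsamples' own gene counts gives 1, 2, 6 and 7, a set that was not run.

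In normal mice Asic3 showed no such order. The inputs were at 9.11, 26.67, 23.48 and 10.78 CPM and the pulldowns at 14.02, 53.94, 14.36 and 1.51 CPM, higher in 2 of 4 biosamples and lower in the other 2 (log2 change -0.34, SE 0.489, limma adjusted p = 0.617). Without the 4 biosamples with the fewest pulldown genes, which leaves biosamples 3 and 4 of the normal mice, it was -1.45 and passed (adjusted p = 0.0446). Asic3 made up 4.14% of the summed level of the 9 genes in normal TRAP (0.345% to 11.2% over biosamples) and 13.3% in paclitaxel TRAP (7.12% to 26.9%).

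**Figure D3:**
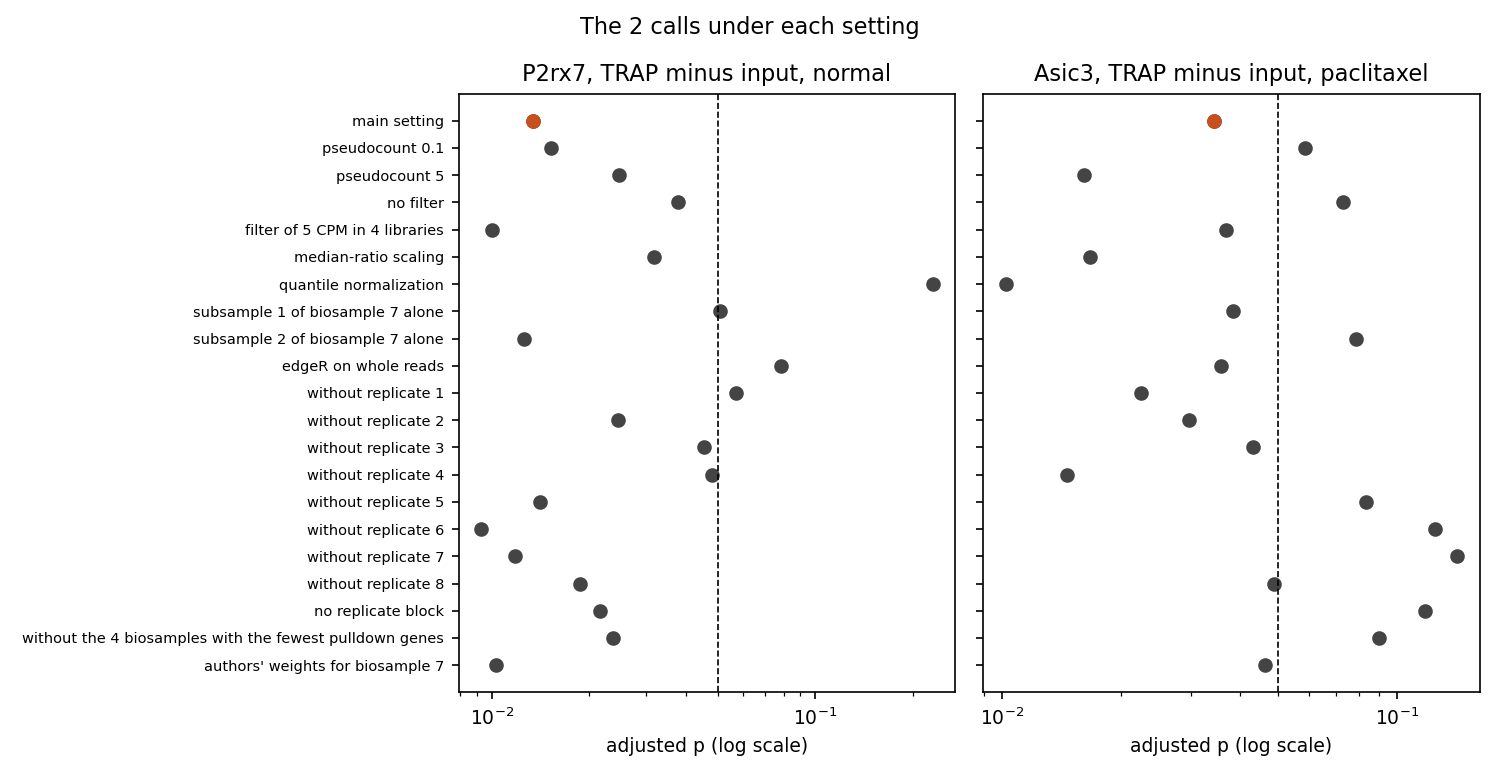
Adjusted p on a log axis for the 2 changes that passed, P2rx7 in normal mice and Asic3 after paclitaxel, under the main setting (orange) and 20 alternatives (grey), with a dashed line at 0.05. The P2rx7 call was lost under 4 alternatives and the Asic3 call under 8.

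Asic1 and Asic2 did not pass between the fractions. Asic1, which encodes the subunit of ASIC channels that close again under lasting acid, was at 11.77 to 24.87 CPM in normal input and 13.27 to 41.74 in normal TRAP, higher in 4 of 4 biosamples by 0.42 (SE 0.456, limma adjusted p = 0.494). After paclitaxel it was higher in 2 of 4 (0.22, SE 0.456). The log2 change of Asic2 was -0.26 in normal mice and -0.12 after paclitaxel, each with an SE of 0.23, and its sign turned positive with median-ratio scaling and with edgeR in both treatments. The pulldown of biosample 7 was the lowest Asic2 value of the series, at 45.09 and 198.77 CPM in its subsamples.

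The difference between the TRAP-input change after paclitaxel and that in normal mice was then tested directly. By limma 0 of 9 genes passed, where 0.19% of all tested genes did, and 2 of 9 had an unadjusted p under 0.05, against 11.3% of all genes. By edgeR 0 of 9 and 0 of all 14214 genes passed, and 1 of the 9 had an unadjusted p under 0.05. Asic3 had the largest difference among the 9 genes, 1.75 (SE 0.691, limma unadjusted p = 0.0185, adjusted p = 0.326, between 0.139 and 0.668 under the alternatives). P2rx4 followed in order of p, with -0.84 (SE 0.353, unadjusted p = 0.026, adjusted p = 0.369). P2rx7, which passed in normal mice alone, had a difference of 0.9 with an SE of 0.942 (adjusted p = 0.759), so its fraction change was not shown to differ between the treatments.

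Paclitaxel-treated and normal mice were compared within each fraction. These comparisons use the same libraries as the fraction comparisons, so their values are not independent of those above. Among the pulldowns 0 of 9 genes passed by limma or by edgeR, where 1.82% of all genes passed by limma and 478 of 14214 by edgeR. An unadjusted p under 0.05 was found for 4 of 9 by limma, against 16.9% of all genes, and for 3 by edgeR. Asic3 was at 1.51 to 53.94 CPM in normal TRAP and 40.29 to 95.9 in paclitaxel TRAP, where only the normal pulldown of biosample 2 reached into the paclitaxel range (log2 change 2.09, SE 0.747, limma unadjusted p = 0.0144, adjusted p = 0.17). With a filter of 5 CPM in 4 libraries its adjusted p was 0.0494, and by edgeR the change was 1.16 with an adjusted p of 0.414, so that the changes ran from 1.16 to 3.61 over the alternatives. P2rx2 was higher by 1.32 (SE 0.517, unadjusted p = 0.0229, adjusted p = 0.207) and P2rx7 by 2.02 (SE 0.875, unadjusted p = 0.0371, adjusted p = 0.258), with overlapping groups in both. P2rx3 was lower by 1.02 on the log2 scale (value -1.02, SE 0.438, unadjusted p = 0.0355, adjusted p = 0.255), with overlap between 27.13 CPM in the lowest normal pulldown and 36.68 in the highest paclitaxel one. The changes of the other 5 genes, none of which passed, lay between -0.72 and 0.29.

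Among the inputs 0 of 9 passed by limma or by edgeR, where 1.64% of all genes passed by limma and 144 of 14214 by edgeR. An unadjusted p under 0.05 was found for 2 of 9 by each tool, against 19.1% of all genes by limma. P2rx3 was at 23.86 to 42.20 CPM in normal input and at 7.54 to 21.76 after paclitaxel. The groups did not overlap, which was so for 3.14% of all genes in this direction, and the change was -1.14 (SE 0.322, limma unadjusted p = 0.00304, adjusted p = 0.0846, between 0.0388 and 0.289 under the alternatives). P2rx7 was at 4.00 to 11.88 CPM in normal input and 10.69 to 19.74 after paclitaxel, with overlap between 10.69 and 11.88 CPM (1.12, SE 0.319, unadjusted p = 0.00336, adjusted p = 0.0884). It passed without biosample 3 (1.4, adjusted p = 0.028), and P2rx3 passed without the 4 biosamples with the fewest pulldown genes (-1.85, 0.0388). The changes of the other 7 genes, none of which passed, lay between -0.26 and 0.49.

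Few cell type markers passed between the inputs, where 1.64% of all tested genes did. The summed level of pan-neuronal markers was 18360 to 21330 CPM in normal input and 13340 to 15340 after paclitaxel, without overlap. Uchl1 (means of 6021 and 2715 CPM) and Tubb3 (4158 and 2360 CPM) had the largest differences in mean among these 14 markers, while Nefl (3028 and 3676 CPM) and Stmn2 (1220 and 1488 CPM) were higher after paclitaxel without passing. Nociceptor markers summed to 5776 to 8998 and 5441 to 7077 CPM, which overlap. Of 21 tested nociceptor markers 0 passed by limma between the inputs, and of 14 pan-neuronal markers 1, Uchl1, an abundant ubiquitin hydrolase of neurons, which was lower (-1.14, adjusted p = 0.0482, lost under 12 of 19 alternatives). Large-fibre markers summed to 1438 to 2302 CPM in normal input and 2398 to 2717 after paclitaxel, and macrophage markers to 113.8 to 253.9 and 226.4 to 286 CPM, and 0 of 14 passed in each list. Of 12 satellite glia markers 2 passed, Fabp7 (1.99, adjusted p = 0.0226) and Slc1a3 (1.69, 0.0237), both higher and each lost under 6 of 19 alternatives. Of 8 fibroblast markers 1 was higher after paclitaxel, as was 1 of 8 endothelial markers, and 0 of 12 Schwann cell markers passed. The part of these cells in the P2rx3 and P2rx7 values was not tested.

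**Figure D4:**
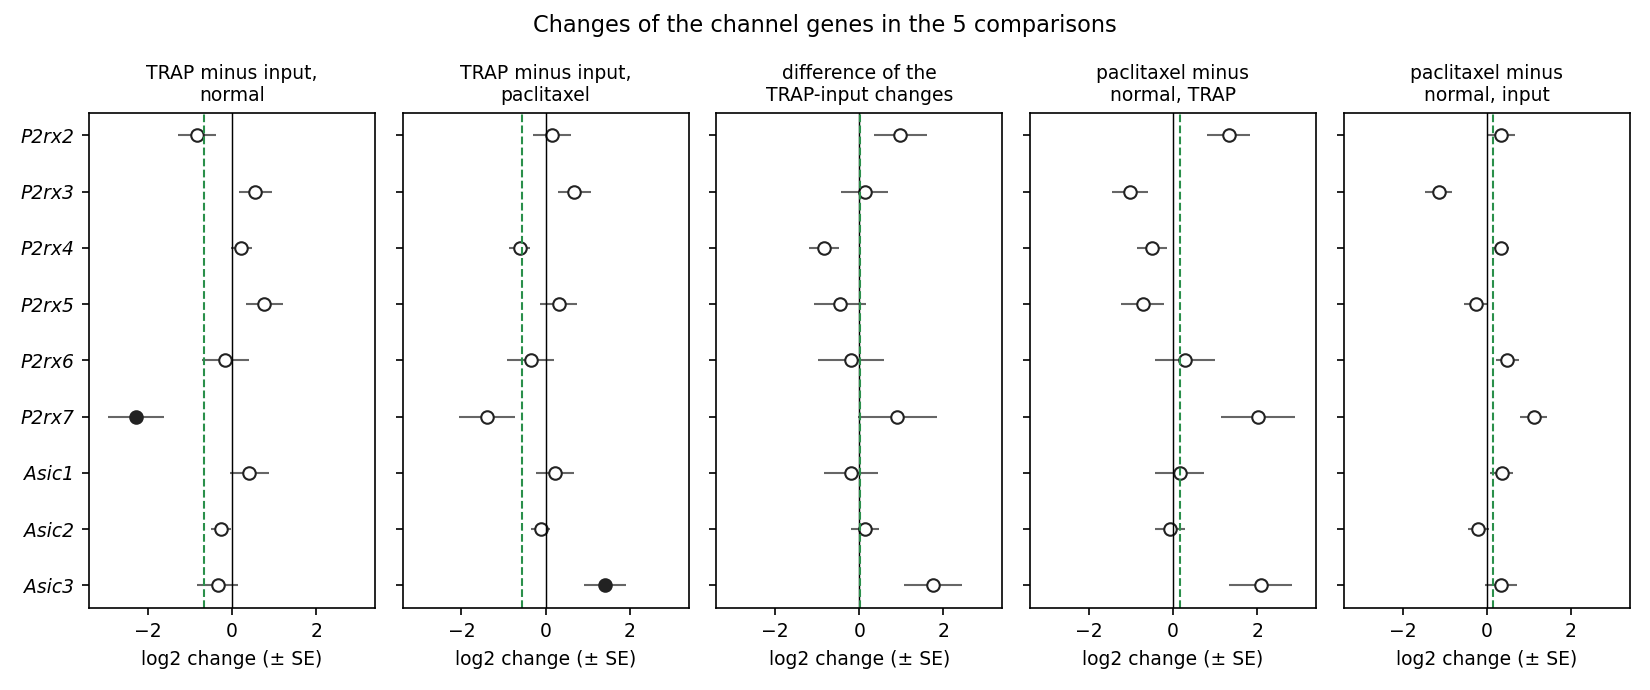
Log2 change with its SE for the 9 channel genes in the 5 comparisons, with filled points for an adjusted p under 0.05, a solid line at 0 and a dashed green line at the median of all 14214 tested genes. P2rx7 at -2.29 in normal mice and Asic3 at 1.41 after paclitaxel are the 2 filled points.

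The other subunits of both families were almost absent. P2rx1, Asic4, Asic5, Scnn1a, Scnn1b and Scnn1g reached a summed level of at most 1.53 CPM in a biosample, and 0 of the 6 had enough reads to be tested. The highest single value was 1.51 CPM, for Asic4.

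For the gene lists that follow, the shares of all tested genes were 24.7% lower and 5.09% higher in normal TRAP, and 23% lower and 4.92% higher after paclitaxel. Genes with P2ry and Adora symbols, most of them metabotropic receptors for nucleotides and adenosine, come first. Of 11 tested P2Y and adenosine receptor genes 4 were lower and 0 higher in normal TRAP, and 2 lower and 0 higher after paclitaxel, with medians of -1.12 and -0.98. With quantile normalization the normal count was 1 lower and 1 higher, with edgeR 1 and 0, and without biosample 1, 2 or 3 it was 2 and 0, while with no filter the paclitaxel count was 4 lower and 1 higher. P2ry1, a receptor for ADP, changed by -1.43 and -1.41 (limma adjusted p = 0.00116 and 0.00174), and the call held under all 20 alternatives in both. P2ry14, a receptor for UDP-sugars, changed by -1.22 and -2.14 (adjusted p = 0.0296 and 0.000857), from 1.575 and 3.72 CPM in input, and its call in normal mice was lost under 8 of 19 alternatives (-0.113 with quantile normalization). P2ry10, a receptor of lymphoid cells that is listed here by its symbol only, changed by -1.47 in normal mice (limma adjusted p = 0.00401). The adenosine receptor gene Adora3 changed by -1.31 there (0.0447). These calls were lost under 3 and 16 of 19 alternatives. Between the inputs 1 of 11 passed, where 1.64% of all genes did. P2ry1 was higher after paclitaxel, at 141.2 ± 16.42 against 55.04 ± 26.54 CPM (SD, n = 4, log2 change 1.44, limma adjusted p = 0.0226). That call was lost under 6 of 19 alternatives.

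Genes from families of enzymes and transporters that clear ATP and adenosine gave 5 lower and 1 higher of 14 tested in normal TRAP. After paclitaxel 5 were lower and 0 higher. Alpl, the tissue-nonspecific alkaline phosphatase, changed by -2.52 and -2.49 (limma adjusted p = 0.0031 and 0.00391). Adk, the kinase that removes adenosine, changed by -1.31 in normal mice (adjusted p = 0.000172), and Enpp2, autotaxin, by -2.2 (0.00255). The Adk change after paclitaxel was -0.06 (limma adjusted p = 0.873). The gene that was higher in normal TRAP was Entpd6, of the same gene family as Entpd1 (1.65, limma adjusted p = 0.022, lost under 4 of 20 alternatives). After paclitaxel Entpd2, an ectonucleotidase of glia, changed by -2.9 (0.00256) and Enpp1 by -1.84 (0.00563). Entpd2 was lower in normal TRAP as well (-1.73, 0.0448), and Enpp2 after paclitaxel as well (-1.53, 0.0267). Acpp, the acid phosphatase long used to mark P2X3 nociceptors, did not pass, with 125.4 ± 27.21 CPM in normal input and 134.6 ± 37.73 in normal TRAP (SD, n = 4). Entpd1, which degrades ATP and ADP, was higher in paclitaxel than in normal input, at 13.33 ± 1.86 and 4.59 ± 2.189 CPM (1.44, adjusted p = 0.037), and this call was lost under 11 of 19 alternatives.

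Of 11 tested genes of ATP storage and release, 1 was higher and 5 lower in normal TRAP, and 1 higher and 3 lower after paclitaxel. The lower count in normal mice was 1 with edgeR and without biosample 3, and 2 with quantile normalization. The gene that was higher was Panx1 in both, the pannexin pore through which cells release ATP. It was at 125 ± 27.28 CPM in normal input and 339.9 ± 82.21 in normal TRAP, and at 74.24 ± 17.11 and 193.9 ± 71.22 CPM after paclitaxel (SD, n = 4). Its changes of 1.43 and 1.32 (limma adjusted p = 3.14e-05 and 0.000123) held under all 20 alternatives. The connexin genes Gjc3 (-2.01 and -2.77) and, after paclitaxel, Gja1 (-3.52) were lower, as was the volume-regulated anion channel gene Lrrc8c in normal mice (-1.55). Between the pulldowns 1 of 11 passed, where 1.82% of all genes did. It was Lrrc8a, the required subunit of the volume-regulated anion channel, at 62.52 ± 4.619 CPM after paclitaxel and 15.57 ± 4.713 in normal mice (1.98, limma adjusted p = 0.0244). This call was lost under 10 of 19 alternatives.

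Of 10 tested genes for other acid sensors 5 were lower and 0 higher in normal TRAP, and 1 lower and 0 higher after paclitaxel. These counts depend on the setting: in normal mice none was lower with edgeR, with quantile normalization (1 higher) or without biosample 1 or 3, and 1 was lower with median-ratio scaling. After paclitaxel 0 were lower and 2 higher with quantile normalization. Trpv4 (-1.44), Kcnk1 (-2.13), a potassium channel that acid closes, and Trpv1 (-1.14), the capsaicin and acid receptor, had the lowest adjusted p in normal mice (0.0173, 0.0197 and 0.0237), each lost under 5 to 8 alternatives. These 3 genes did not pass after paclitaxel. There the Trpv1 mean was higher in TRAP, at 58.43 CPM against 32.07 in input, whereas the means of Trpv4 and Kcnk1 were lower in TRAP. Otop1, a proton channel, changed by -2.24 after paclitaxel (limma adjusted p = 0.000618), from 3.981 CPM in input to 0.0475 in TRAP. In normal TRAP Otop1 was lower as well (-1.19, 0.0342), from 1.487 to 0.0175 CPM. Among 10 tested partners of the channels 1 was higher and 1 lower in normal TRAP, Camk2a (0.58, adjusted p = 0.0428) and the kinase gene Fyn (-1.07, 0.0177). These calls were lost under 9 and 6 of 20 alternatives, and without biosample 1 the changes were 0.348 and -0.643. After paclitaxel 3 were higher and 1 lower. The lower one was Vsnl1 (-2.28, 0.00596), a calcium sensor protein gene, whose call was lost under 4 of 20 alternatives (-0.968 without biosample 5, adjusted p = 0.0827). Stoml1, a stomatin-like protein that modulates ASIC channels, was higher (0.76, 0.0139), and so was the kinase gene Cdk5 (0.82, 0.0211), whose 3′ end lies next to that of Asic3, and S100a10 (0.5, 0.0494), an adaptor that brings channels to the membrane, with calls lost under 4, 5 and 11 of 20 alternatives. Without biosample 5 none of the 10 passed. In the difference between the treatments 0 genes of these 5 lists passed by limma, where 0.19% of all genes did.

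**Figure D5:**
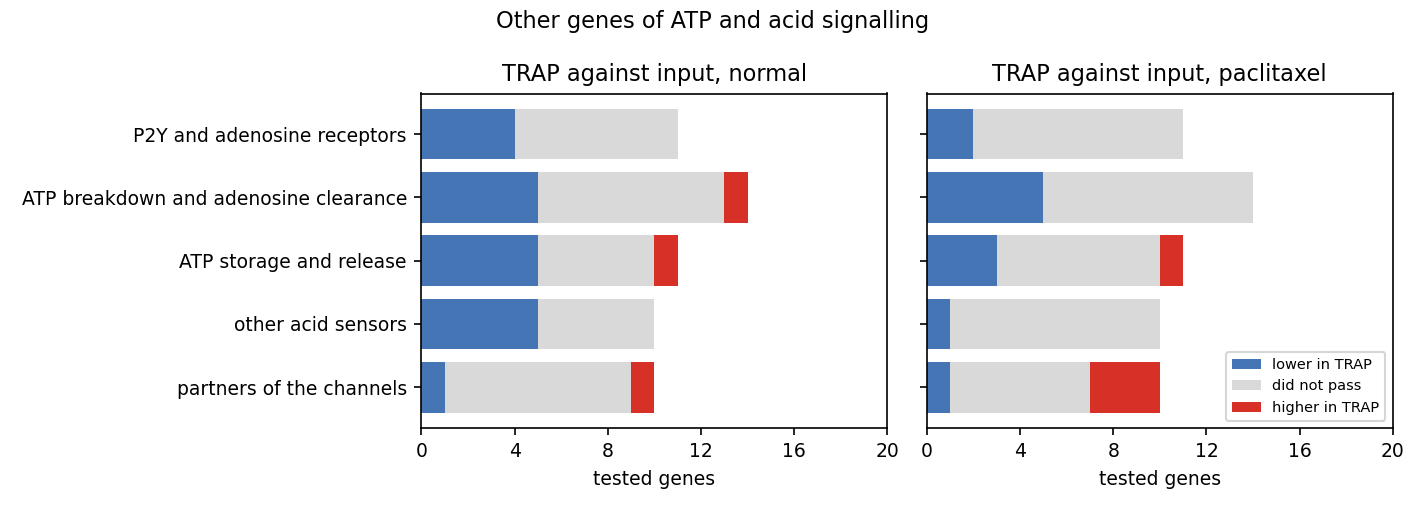
Number of tested genes lower in TRAP (blue), higher in TRAP (red) or not passing (grey) in 5 lists of ATP and acid signalling genes, for normal and paclitaxel biosamples. Panx1 is the gene counted as higher among ATP storage and release in both panels.

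The genes whose levels ran most alike those of each channel gene were found by Pearson's r of log2(CPM + 1) over the 16 pooled libraries, among about 10526 genes with a mean of at least 5 CPM. The points share libraries, depth and the contrast of pulldown and input, so the values describe these libraries. P2rx7 ran most alike Atp6v1g2 (r = 0.976), Clcn7 (0.946) and Mmp2 (0.943). Asic3 ran most alike F2rl2 (0.931), Gfra3 (0.907) and Psma6 (0.906), and P2rx3 most alike Tubb3 (0.895), Atp6ap1 (0.892) and Fam195b (0.865). For P2rx2 these were Trim68 (0.902), Ptprc (0.851) and Garem (0.836), at levels where 1 or a few reads set a value. For P2rx5 they were Arhgef11 (0.88), Riok1 and Kcng2, for P2rx4 Trim12c (0.847) and Herc2, and for P2rx6 Gsk3a (0.839), Abi3 and Man2a2. Asic1 ran most alike Surf6, Anapc2 and Grhpr, and Asic2 most alike Ddhd2 (0.847), Cecr5 and Plekhm2. Among the channel genes themselves the highest r was 0.56, between P2rx3 and P2rx5, and the lowest -0.79, between P2rx5 and P2rx7. P2rx3 and P2rx7 had -0.69, and P2rx4 and Asic3 -0.65.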

How the data were processed

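The channel genes and all gene lists were chosen with earlier results of these data known. The authors deposited 1 table of 22021 genes for 18 libraries, and 2 merged columns for biosample 7, used here only for their weights. The submitters' processing notes name build GRCm38.p4 and, without an order, Cufflinks 2.2.1, Bowtie2 2.2.9, TopHat2 2.1.1 and FastQC 0.11.5. The deposited values are headed TPM but are CPM: each column sums to the same total, and 98% to 99% of the values above 0 in a library are whole-number multiples of that library's smallest step (tolerance 0.0051 CPM). The tests were written for the headed unit and applied unchanged to CPM. Dividing by that step gave reads, 4266012 to 32713520 per library. Reads carry no molecular identifiers that the sources used here name, so floors and intervals cover counting error only.

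The comparisons used limma 3.58.1 in R 4.3.3 on log2(CPM + 1), with intensity trend, for the 14214 genes that reached 1 CPM in 4 or more of the 16 pooled libraries. TRAP against input and its difference between treatments came from 1 fit with biosample as a block, in which both treatments share the spread of a gene. Input and pulldown came from the same homogenate. The deviations of same-numbered libraries from their group means had r = 0.053 to 0.376 over 8 pairs, the best match in 7. Some margins were small, with 0.168 against 0.165 for the next pulldown in biosample 7. In biosample 1 another pulldown matched better (0.117 against 0.053). Paclitaxel against normal was fitted on 8 libraries of 1 fraction. P-values are two-sided, adjusted by Benjamini-Hochberg over all tested genes, with a threshold of 0.05. Named genes were the 9 members, Scn10a, at most 3 genes per list and comparison with the lowest adjusted p that passed, and the 3 genes most alike each member, of which 1 is not reported here. Acpp, Uchl1, Entpd6, Adora3, S100a10, the untested subunits and the markers beside them were added after their values were seen, as values of lists. So were the values of Otop1 and Entpd2 in normal mice and of Enpp2, Adk, Trpv1, Trpv4 and Kcnk1 after paclitaxel. Alternatives were 18 set with the tests and 2 added after seeing the data, among them edgeR 4.0.16. The fits were tested on simulated reads. Gene positions came from GENCODE on GRCm38 and start windows from RefSeq.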

Additional observations from a re-analysis of the deposited data

Results flagged for a closer look

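Of 36 groups of 4 values of a channel gene, 3 held a value far from the other 3, and chance gives about 5% of groups. P2rx2 in normal TRAP was at 0.17 CPM in biosample 4, which is 1 read, and at 0 in the other biosamples. P2rx5 in paclitaxel input was at 21.73 CPM in biosample 8, above 14.47 to 15.48 CPM in the others. Asic2 in paclitaxel TRAP was at 121.93 CPM in biosample 7, the mean of 45.09 and 198.77 CPM in its subsamples, below 297.95 to 333.03 CPM in the others. The pulldown of subsample 1 of that biosample was also the one with the fewest genes at 1 CPM or more, 8081. Its part in the Asic2 value was not tested beyond the values with each subsample alone.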

How the results depend on the processing

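Of the 45 changes of a channel gene, 26 kept their direction under every alternative run and 19 turned in at least 1, among them no change that passed. Of the 43 changes that did not pass, 9 passed in at least 1 alternative. P2rx7 in normal mice kept its call under 16 of 20 alternatives and Asic3 after paclitaxel under 12 of 20. With subsample 1 of biosample 7 alone the P2rx7 change in normal mice stayed at -2.29. Only the spread shared with the paclitaxel biosamples and the adjustment changed there. Why the other alternatives lost a call was not tested. Of 37 calls followed among Scn10a, the pathway genes and the markers, 12 held under every alternative, 25 were lost in at least 1 and 0 turned. The calls of Otop1 and Entpd2 in normal mice and of Enpp2 after paclitaxel were not followed. Without the replicate block 0 members passed after paclitaxel, where Asic3 had an adjusted p of 0.118, and 0 genes of all passed in the difference between treatments. The block changed no other count of members.

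The number of channel genes passing between TRAP and input was 1 in each treatment. In normal mice it was 0 with edgeR and with subsample 1 of biosample 7 alone, 2 without the 4 biosamples with the fewest pulldown genes, and 0 to 1 when each replicate was left out. After paclitaxel it was 0 with a pseudocount of 0.1, with no filter and without those 4 biosamples, 2 with subsample 2 alone and with the authors' weights for the subsamples (weight 0.742 on subsample 2 in TRAP), 3 with quantile normalization (P2rx2, 1.09, P2rx3, 1.28, and Asic3), and 0 to 1 with a replicate left out. With quantile normalization P2rx5 passed in normal mice (1.2, adjusted p = 0.0394) in place of P2rx7. Between the treatments it was 1 in TRAP with a filter of 5 CPM, and in input 1 without the 4 biosamples and 0 to 1 with a replicate left out. In the difference of changes it was 0 throughout.

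Of all genes, 4233 passed in normal mice, against 1864 with edgeR, 2695 with quantile normalization, 2785 with subsample 1 alone, 2393 without the 4 biosamples and 2327 to 4356 with a replicate left out. After paclitaxel 3963 passed, against 1915 with edgeR, 1845 without the 4 biosamples and 2049 to 4377 with a replicate left out. In the difference 27 passed, against 0 with edgeR and with no filter, 13 with a pseudocount of 0.1, 6 with quantile normalization, 5 and 17 with subsample 1 and 2 alone, 9 without the 4 biosamples and 0 to 86 with a replicate left out. Between the pulldowns 259 passed, against 478 with edgeR, 729 with a filter of 5 CPM, 0 with no filter, 523 with quantile normalization, 100 with subsample 1 alone, 0 without the 4 biosamples and 0 to 491 with a replicate left out. Between the inputs 233 passed, against 144 with edgeR, 0 with no filter, 107 with quantile normalization, 126 without the 4 biosamples and 0 to 831 with a replicate left out. The higher share of called genes went from 73% to 46.2%, 58.7% and 40.4% between the pulldowns, and from 88.8% to 76%, 80.4% and 68.1% between the inputs, with median-ratio scaling, quantile normalization and edgeR. With edgeR it was 67.2% in normal mice and 59.9% after paclitaxel between the fractions.

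Changes near 0 turned as follows. In TRAP against input of normal mice, Asic2 became 0.267 with edgeR and 0.185 with median-ratio scaling, Asic3 0.209, 0.0698 and, with quantile normalization, 0.113, P2rx6 0.348, 0.239 and 0.549, and P2rx2 0.00924 with quantile normalization. With a replicate left out P2rx6 ranged from -0.285 to 0.0248 and Asic3 from -0.777 to 0.296. After paclitaxel Asic2 became 0.278 with edgeR, 0.196 with median-ratio scaling, 0.0208 with subsample 2 alone, and -0.274 to 0.00682 with a replicate left out. P2rx6 became 0.00398 with edgeR and 0.257 with quantile normalization. P2rx2 became -0.293 with a pseudocount of 0.1, -0.371 with subsample 1 alone, and -0.0598 to 0.681 with a replicate left out. P2rx5 became -0.488 with subsample 1 alone and -0.293 without the 4 biosamples, and Asic1 -0.487 without them; with a replicate left out they ranged from -0.125 to 0.537 and from -0.05 to 0.484. In the difference of changes P2rx3 became -0.013 with median-ratio scaling and Asic2 -0.183 with subsample 1 alone. With a replicate left out these ranged from -0.113 to 0.399 and from -0.112 to 0.451, P2rx6 from -0.382 to 0.0528 and Asic1 from -0.468 to 0.0658. With subsample 2 alone P2rx6 became 0.0671 and P2rx7 -0.307. P2rx6 was 0.0282 without the 4 biosamples. Between the pulldowns Asic1 became -0.0555 with median-ratio scaling, -0.0722 with quantile normalization, -0.909 without the 4 biosamples, and -0.184 to 0.494 with a replicate left out. Asic2 became 0.026 with the authors' weights, 0.106 with subsample 2 alone, and -0.239 to 0.272 with a replicate left out, and P2rx6 -0.19 with subsample 1 alone. Between the inputs Asic2 ranged from -0.417 to 0.0123 and Scn10a from -0.357 to 0.0398 with a replicate left out, and P2rx2 was -0.0779 without the 4 biosamples. The 4 biosamples left out were 1, 2, 5 and 6. Counting error is widest for P2rx2 and P2rx7 in the normal pulldowns, where single libraries hold 0 to 1 and 0 to 34 reads.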
